A study of Mus musculus with 12 samples.

Results

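The 35 genes described here carry out glycolysis, move glucose and lactate across the cell membrane, or respond to low oxygen. They were taken by name from textbook membership of these pathways, with earlier results of these data known. All 35 were found among the 52636 genes of the count tables. By role they comprise 2 glucose transporters, 15 glycolytic enzymes, 5 genes of pyruvate and lactate handling, the glucose-uptake inhibitor Txnip, the hypoxia-inducible factor (HIF) subunit Hif1a, and 11 HIF targets outside glycolysis. The first 3 roles are called the 22 glycolytic genes below, and they are set beside the 11 HIF targets throughout.

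Libraries came from the mouse embryonic stem cell (ESC) line E14, either wild type (WT) or with a knockdown (KD) of the circular RNA circKat6b-e2, whose host gene Kat6b encodes a histone acetyltransferase. Each genotype was sequenced before differentiation and after 6 days as embryoid bodies (EBs), aggregates in which ESCs form several lineages. This gives 4 groups (ESC WT, ESC KD, EB WT and EB KD) of 3 libraries each, described by the series as biological replicates. The sample titles mark the KD with the prefix sh, as used for a short hairpin RNA. Whether WT cells carried a control hairpin, and whether the KD population was clonal, is not given in the sources used here, nor are the oxygen level and the glucose content of the medium. ESC medium held serum, LIF, the MEK inhibitor PD0325901 and the GSK3 inhibitor CHIR99021. Messenger RNA was selected by its poly(A) tail, so the circular RNA itself was not measured.

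Glycolysis splits glucose into pyruvate through a fixed series of enzymes, each of which is encoded by a few isozyme genes with different tissue preferences. HIF is a transcription factor whose alpha subunit is hydroxylated and degraded when oxygen is present, so that its protein, more than its mRNA, is what oxygen controls. When stabilised, HIF binds short DNA elements with the core ACGTG or GCGTG and raises transporters, most glycolytic enzymes, Vegfa, Bnip3 and its own hydroxylases. Naive mouse ESCs use both glycolysis and respiration, and glycolytic genes are also raised by MYC.

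The promoters of the members are shown first because the 2 gene sets share this element by textbook knowledge. A core HIF motif was searched as the letters ACGTG or GCGTG on both strands, in a window of 250 bases before and 50 after the RefSeq start of transcription (GRCm38.p6). Matches can overlap and each is counted: neighbours on 1 strand can share a base, as in Higd1a, and the palindrome CACGTG holds ACGTG on both strands and counts as 2 matches. An entry was found for 33 of the 35 members, all but Slc2a3 and Ndrg1. Of these 33, 25 (75.8%) held a match, against 11836 of 27025 (43.8%) promoters of all genes. At least 2 matches stood in 22 of 33 (66.7%) member promoters, against 20.8% of all promoters. The share with a match was 15 of 21 (71.4%) for the glycolytic genes and 8 of 10 (80.0%) for the HIF targets. A match is a description of letters and no evidence of binding.

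Printed below are the 250 bases upstream of the start for 6 members on which the results turn, 5 that were lower in KD EBs and Pdk1, which was higher. Capitals mark the matches, each sequence reads 5′ to 3′ along the gene's own strand, and the last capitals of Pdk1 open a match that crosses the start.
Pgk1 (chrX:106186850-106187099, plus strand): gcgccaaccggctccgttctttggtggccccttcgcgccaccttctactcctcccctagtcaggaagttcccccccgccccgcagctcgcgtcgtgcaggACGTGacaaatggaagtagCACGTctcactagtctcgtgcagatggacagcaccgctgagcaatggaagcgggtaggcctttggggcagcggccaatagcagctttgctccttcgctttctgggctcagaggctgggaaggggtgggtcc
Ldha (chr7:46845554-46845803, plus strand): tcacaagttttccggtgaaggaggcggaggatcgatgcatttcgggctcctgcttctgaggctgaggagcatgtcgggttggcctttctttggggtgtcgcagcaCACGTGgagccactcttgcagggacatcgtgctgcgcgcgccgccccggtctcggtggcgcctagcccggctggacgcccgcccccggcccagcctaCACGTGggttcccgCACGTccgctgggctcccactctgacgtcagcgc
Slc16a3 (chr11:120948817-120949066, plus strand): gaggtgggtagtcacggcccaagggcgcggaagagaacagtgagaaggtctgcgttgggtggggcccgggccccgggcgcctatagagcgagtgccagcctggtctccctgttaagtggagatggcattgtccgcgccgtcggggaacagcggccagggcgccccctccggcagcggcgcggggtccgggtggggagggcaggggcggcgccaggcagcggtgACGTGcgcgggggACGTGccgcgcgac
Bnip3 (chr7:138909507-138909756, minus strand): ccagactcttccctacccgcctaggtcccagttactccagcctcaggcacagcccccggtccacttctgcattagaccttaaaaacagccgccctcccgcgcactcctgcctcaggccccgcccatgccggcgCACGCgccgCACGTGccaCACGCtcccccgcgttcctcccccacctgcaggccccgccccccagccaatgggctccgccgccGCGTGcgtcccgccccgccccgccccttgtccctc
Adm (chr7:110627407-110627656, plus strand): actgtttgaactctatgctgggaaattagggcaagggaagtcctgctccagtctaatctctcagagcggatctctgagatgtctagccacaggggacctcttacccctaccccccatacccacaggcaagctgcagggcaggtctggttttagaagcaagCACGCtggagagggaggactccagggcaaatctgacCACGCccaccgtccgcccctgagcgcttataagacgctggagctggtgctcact
Pdk1 (chr2:71872974-71873223, plus strand): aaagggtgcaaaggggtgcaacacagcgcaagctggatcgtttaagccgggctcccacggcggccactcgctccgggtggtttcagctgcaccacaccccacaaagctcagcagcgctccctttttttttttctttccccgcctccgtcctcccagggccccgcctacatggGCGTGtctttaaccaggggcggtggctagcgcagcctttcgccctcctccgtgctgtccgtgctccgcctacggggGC
Ldha had the most matches of all members in its window, 7, and Bnip3 and Slc16a1 had 5 each. Pdk1, with 2, rose in KD EBs while the other 5 printed genes fell, so matches stood in genes of both directions. Aldoa, Pkm, Tpi1, Gpi1, Hk1, Eno2, Vegfa and Mxi1 had no match in this window.

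Total counts ran from 25.4 to 37.8 M per library. ESC WT replicate 2 stood apart: the mean chi-square per gene against the other ESC WT libraries was 60.9 and 61.7, against 4.96 to 9.57 for every other replicate pair. The calls of members in ESCs are therefore given with and without it. Kat6b was measured as a check of the labels at 35.8 ± 1.14 counts scaled to the library size (CPM; mean ± SD, n = 3) in EB WT and 70.6 ± 1.46 in EB KD, and at 67.0 ± 9.87 in ESC WT and 88.8 ± 3.65 in ESC KD; these are counts of the linear host mRNA. CPM are scaled within a stage for KD against WT, unless marked as the 12-library scale. For EBs against ESCs and for levels per kb they are scaled over all 12 libraries. The Kat6b values are on the scale of their stage. A gene was called when edgeR's quasi-likelihood test gave a Benjamini-Hochberg adjusted p under 0.05 over all genes tested, and all 35 members were tested in every comparison.

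In ESCs none of the 35 members was called. Among all 16081 genes tested, 0.168% were called higher and 0.435% lower in KD. At an unadjusted p under 0.05 there were 9 members (25.7%), near the 21.4% of all genes. DESeq2 called 4 members (Gpi1, Gapdh, Ldhb and Higd1a, all lower), where it called 5.63% of the 11707 genes with an adjusted p lower and 2.2% higher. The median log2 fold change, KD over WT, was −0.03 for the 22 glycolytic genes and −0.03 for the 11 HIF targets, beside 0.01 over all genes; with library size only in place of edgeR's TMM scaling, which evens out differences in RNA makeup, both turned positive (0.075 and 0.072, beside 0.12 over all genes). Summed over the 22 glycolytic genes, the level lay between 24451 and 24940 CPM (ESC scale) in the WT libraries and between 23133 and 23591 CPM in the KD libraries. The groups did not overlap in this sum on the TMM scale. With library size only they did, since ESC WT replicate 2 then stood at 21809 CPM, below the KD libraries at 24205 to 24359 CPM.

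Without ESC WT replicate 2, edgeR called 7 members in ESCs, 6 lower and 1 higher, where 5.6% of all genes were called lower and 3.75% higher. Gpi1, glucose-6-phosphate isomerase, then had a log2 fold change of −0.23 (adjusted p = 3.18e-05), and Ldhb, the lactate dehydrogenase subunit of heart and other oxidative tissues, had one of −0.23 (adjusted p = 0.000122). Higd1a, a mitochondrial protein of the hypoxia response, stood at −0.25 (adjusted p = 7.28e-05), Aldoa at −0.18, Pfkl at −0.17 and Egln1 at −0.23. Pgam1, phosphoglycerate mutase, was the 1 higher gene, at 0.31 (adjusted p = 3.21e-06). In Pgam1 the odd library lay far below the rest. It measured 499, 213 and 533 CPM (ESC scale) in the ESC WT libraries and 606, 643 and 668 CPM in ESC KD.

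In day 6 EBs, 28 of the 35 members fell and 2 rose in KD. Over all 17355 genes tested, 27.7% were called lower and 28% higher, so that the members leaned to lower levels where the table as a whole was balanced. The members were chosen with earlier results of these data known, so this lean is a description only. The median log2 fold change was −0.56 over the 35 members and 0.00 over all genes. Of the 22 glycolytic genes 20 fell, Pdk1 rose and Gapdh was not called, with a median of −0.58. Of the 11 HIF targets 7 fell and 4 were not called (Ndrg1, Egln1, Ankrd37 and P4ha2), with a median of −0.53. All 11 HIF targets had a log2 fold change below 0. In these bulk libraries, fewer cells of a type and less RNA per cell cannot be told apart.

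**Figure D1:**
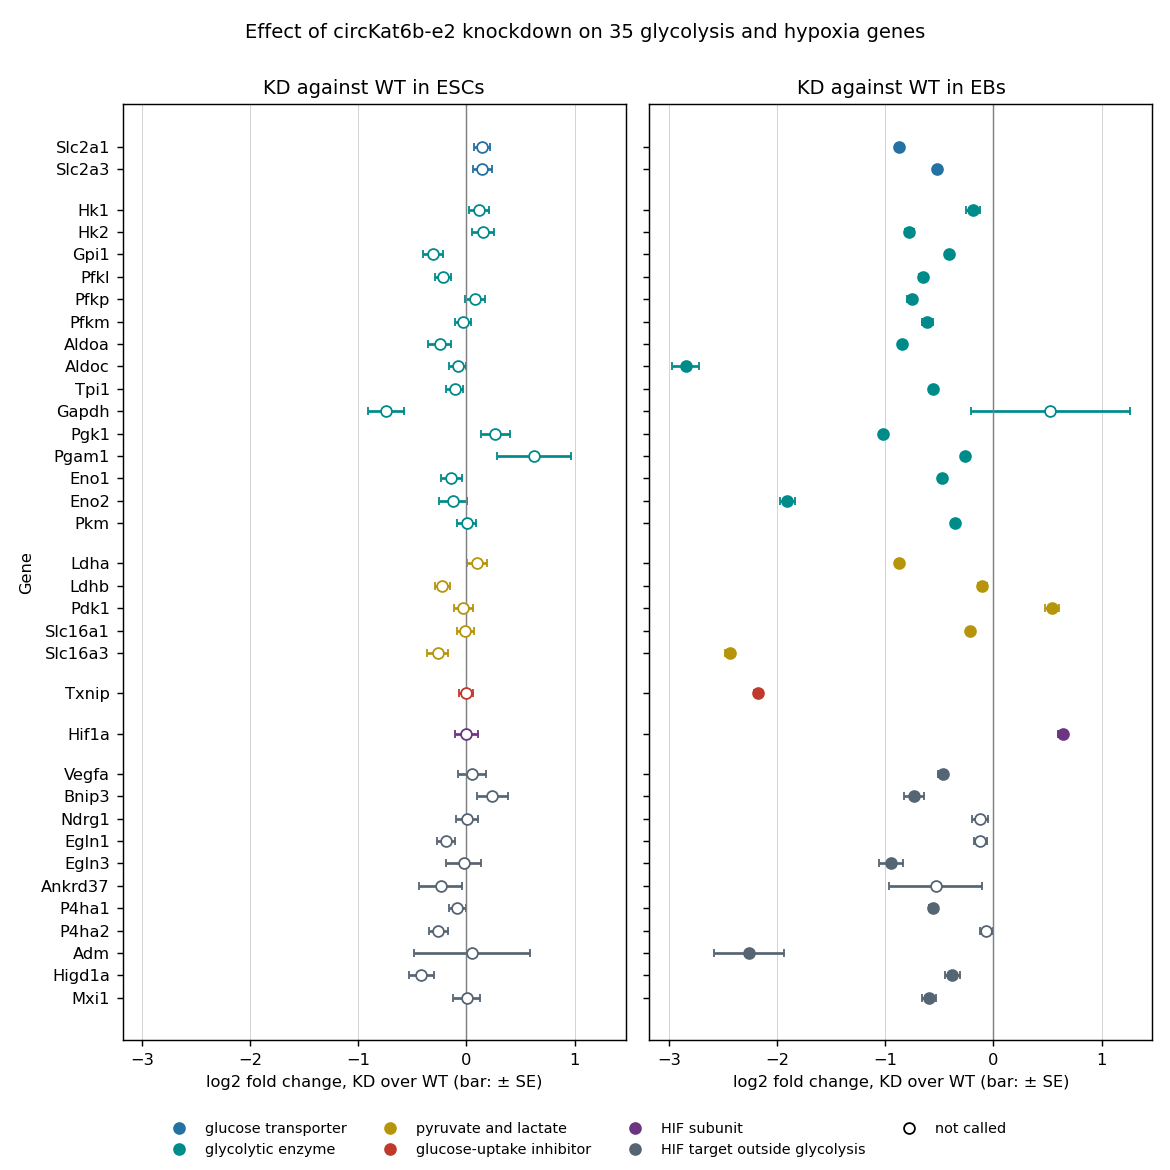
Log2 fold change, KD over WT, with its standard error (x axis) for each of the 35 genes (y axis), in ESCs on the left and EBs on the right; filled points were called at an adjusted p under 0.05 and open points were not. In ESCs all 35 points are open, while in EBs 28 filled points lie below 0 and 2, Pdk1 and Hif1a, lie above it.

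Both glucose transporters fell in KD EBs. Slc2a1 encodes GLUT1, the widely expressed transporter (chr4:119108711-119137983, GRCm38), and had the highest level per kb of exon of all members in EB WT, at 432 ± 2.81 CPM per kb (12-library scale). Its 3 EB WT libraries measured 1822, 1802 and 1804 CPM (EB scale) and its 3 EB KD libraries 944, 994 and 1027 CPM. The groups lay far apart, with a log2 fold change of −0.87 (SE 0.03, adjusted p = 6.83e-22). Slc2a3, which encodes the high-affinity transporter GLUT3, measured 2984, 2985 and 2931 CPM in EB WT and 2101, 2033 and 2053 CPM in EB KD. That is a log2 fold change of −0.52 (SE 0.02, adjusted p = 3.07e-18), again with no overlap.

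Of the 15 glycolytic enzymes, 14 fell in KD EBs and the median log2 fold change was −0.61. Every step from hexokinase to pyruvate kinase had at least 1 called gene except glyceraldehyde-3-phosphate dehydrogenase, whose Gapdh counts are treated separately below. The neural-type isozymes Aldoc (aldolase C) and Eno2 (enolase 2) fell most, and the main isozymes of each step fell by between 0.26 (Pgam1) and 1.02 (Pgk1) on the log2 scale.

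Aldoc (chr11:78322968-78327781) measured 32.2, 33.4 and 32.4 CPM (EB scale) in the EB WT libraries and 3.94, 3.78 and 5.87 CPM in the EB KD libraries. The log2 fold change was −2.85 (SE 0.12, adjusted p = 1.28e-16), the largest fall of any member. Eno2 (chr6:124760053-124769673) measured 71.1, 70.1 and 68.4 CPM in EB WT and 19.7, 19.2 and 16.9 CPM in EB KD, a log2 fold change of −1.91 (SE 0.07, adjusted p = 1.59e-20). In neither gene did any KD library come near a WT library.

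Pgk1, phosphoglycerate kinase, makes ATP directly and had the highest level per kb among the enzymes in EB WT. It measured 894, 893 and 895 CPM (EB scale) in EB WT and 437, 434 and 450 CPM in EB KD, with a log2 fold change of −1.02 (SE 0.03, adjusted p = 1.72e-23). Aldoa, the main aldolase, measured 1009, 1061 and 1058 CPM in EB WT and 567, 587 and 593 CPM in EB KD, with a log2 fold change of −0.84 (SE 0.03, adjusted p = 4.00e-21). Both were lower in all 3 KD libraries, and the replicates of each group lay close together.

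The committed steps fell as well. Hk2, the inducible hexokinase, had a log2 fold change of −0.78 (SE 0.04), and the phosphofructokinase genes Pfkp, Pfkl and Pfkm had −0.76, −0.65 and −0.61. Tpi1 (triosephosphate isomerase) stood at −0.56, Eno1 (the main enolase) at −0.48, Gpi1 at −0.41 and Pkm (pyruvate kinase) at −0.36. Hk1, the constitutive hexokinase, had the smallest called fall of the enzymes: 52.0, 46.5 and 50.2 CPM (EB scale) in EB WT against 44.9, 44.6 and 41.1 CPM in EB KD, a log2 fold change of −0.19 (SE 0.06, adjusted p = 0.0132). Its groups were separated by a small margin, and the call was lost without EB WT replicate 1 (adjusted p = 0.0761), without EB KD replicate 3 (adjusted p = 0.0957) and in the fit of all 4 groups (adjusted p = 0.237). The Pgam1 call was also lost in the fit of all 4 groups (adjusted p = 0.619).

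Among the genes of pyruvate and lactate handling the spread was wide. Slc16a3 encodes MCT4, the transporter that exports lactate from strongly glycolytic cells (chr11:120948480-120960868). It measured 251, 244 and 245 CPM (EB scale) in EB WT and 44.2, 43.1 and 49.1 CPM in EB KD, with a log2 fold change of −2.44 (SE 0.05, adjusted p = 6.39e-28). Slc16a1, which encodes the bidirectional transporter MCT1, had a smaller change: 1019, 994 and 990 CPM in EB WT against 873, 861 and 854 CPM in EB KD, a log2 fold change of −0.21 (SE 0.03, adjusted p = 3.76e-08).

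Ldha, the lactate dehydrogenase subunit that favours lactate formation, measured 1317, 1301 and 1344 CPM (EB scale) in EB WT and 709, 730 and 727 CPM in EB KD, with a log2 fold change of −0.87 (SE 0.03, adjusted p = 2.17e-22). Ldhb measured 109, 110 and 113 CPM in EB WT and 106, 101 and 101 CPM in EB KD. Its log2 fold change of −0.10 (SE 0.04, adjusted p = 0.0348) passed the threshold narrowly, and the call was lost in DESeq2 (adjusted p = 0.058), with library size only (0.0673), in the fit of all 4 groups (0.501) and without any 1 of 4 EB libraries (0.0545 to 0.124). Pdk1, the kinase that shuts pyruvate dehydrogenase and is itself a HIF target, went the other way. Its EB WT libraries measured 42.1, 40.5 and 47.5 CPM and its EB KD libraries 63.3, 66.4 and 59.9 CPM, a log2 fold change of 0.54 (SE 0.06, adjusted p = 1.15e-08).

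Txnip encodes a protein that removes glucose transporters from the membrane, and its gene is raised by the glucose sensor MondoA when glycolytic intermediates accumulate (chr3:96557957-96561883). It measured 358, 369 and 363 CPM (EB scale) in EB WT and 80.7, 79.6 and 80.6 CPM in EB KD. The log2 fold change was −2.18 (SE 0.04, adjusted p = 1.72e-29), the smallest adjusted p of any member. Of its exonic bases 19.4% are shared with the antisense gene Gm15441, which had 427 counts over all 12 libraries.

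Hif1a, the oxygen-regulated HIF subunit (chr12:73901375-73947530), rose in KD EBs, where 7 of its 11 targets outside glycolysis fell. It measured 108, 105 and 103 CPM (EB scale) in EB WT and 166, 170 and 156 CPM in EB KD, a log2 fold change of 0.64 (SE 0.04, adjusted p = 2.50e-14). This is the mRNA; the HIF-1 alpha protein was not measured.

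Among the 11 HIF targets outside glycolysis, Adm, which encodes the vasodilator peptide adrenomedullin, fell most. Its level was low, at 3.02, 2.81 and 3.13 CPM (EB scale) in EB WT and 0.683, 0.788 and 0.395 CPM in EB KD, with a log2 fold change of −2.26 (SE 0.32, adjusted p = 5.68e-07). P4ha1, a collagen prolyl hydroxylase with the highest level per kb of this class in EBs, measured 189, 189 and 191 CPM in EB WT and 124, 131 and 132 CPM in EB KD, with a log2 fold change of −0.56 (SE 0.04, adjusted p = 7.35e-14). Higd1a had the smallest called fall, from 39.3, 41.8 and 40.6 CPM to 29.7, 32.9 and 31.0 CPM, a log2 fold change of −0.38 (SE 0.07, adjusted p = 3.80e-05). In all 3 genes the WT and KD libraries were separate.

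The other called members of this class were Egln3, a HIF prolyl hydroxylase, at −0.95, the mitophagy receptor Bnip3 at −0.74, the MAX partner Mxi1 at −0.60 and the angiogenic factor Vegfa at −0.47. Those not called were Ankrd37 at −0.53 (SE 0.43), Ndrg1 at −0.12 (SE 0.08), Egln1 at −0.12 (SE 0.06) and P4ha2 at −0.07 (SE 0.06). Ankrd37 was present at 1.21 CPM or less in every EB library, so a change of this size was not detectable at this depth. Egln1, Ndrg1 and P4ha2 were measured at 28.1 to 52.3 CPM in EBs and had small standard errors. Egln1 was called lower without EB KD replicate 2 (−0.17, adjusted p = 0.0423). Differences between genes of 1 family were not tested.

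Set side by side in KD EBs, glycolytic genes and HIF targets had close medians (−0.58 and −0.53). The shares called lower were 20 of 22 and 7 of 11. A log2 fold change below −0.5 was measured for 13 of the 22 glycolytic genes and 6 of the 11 HIF targets. Summed CPM (EB scale) of the glycolytic genes was 15200 ± 149 in EB WT and 10162 ± 132 in EB KD, and that of the HIF targets was 588 ± 2.44 and 433 ± 10.9. The ratio of the glycolytic sum to the HIF target sum lay between 25.7 and 26.1 in the EB WT libraries and between 22.9 and 24.0 in the EB KD libraries. In ESCs it lay between 33.9 and 37.8 in WT and between 39.3 and 40.3 in KD. Members are not replicates, so no test was made of one class against the other.

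**Figure D2:**
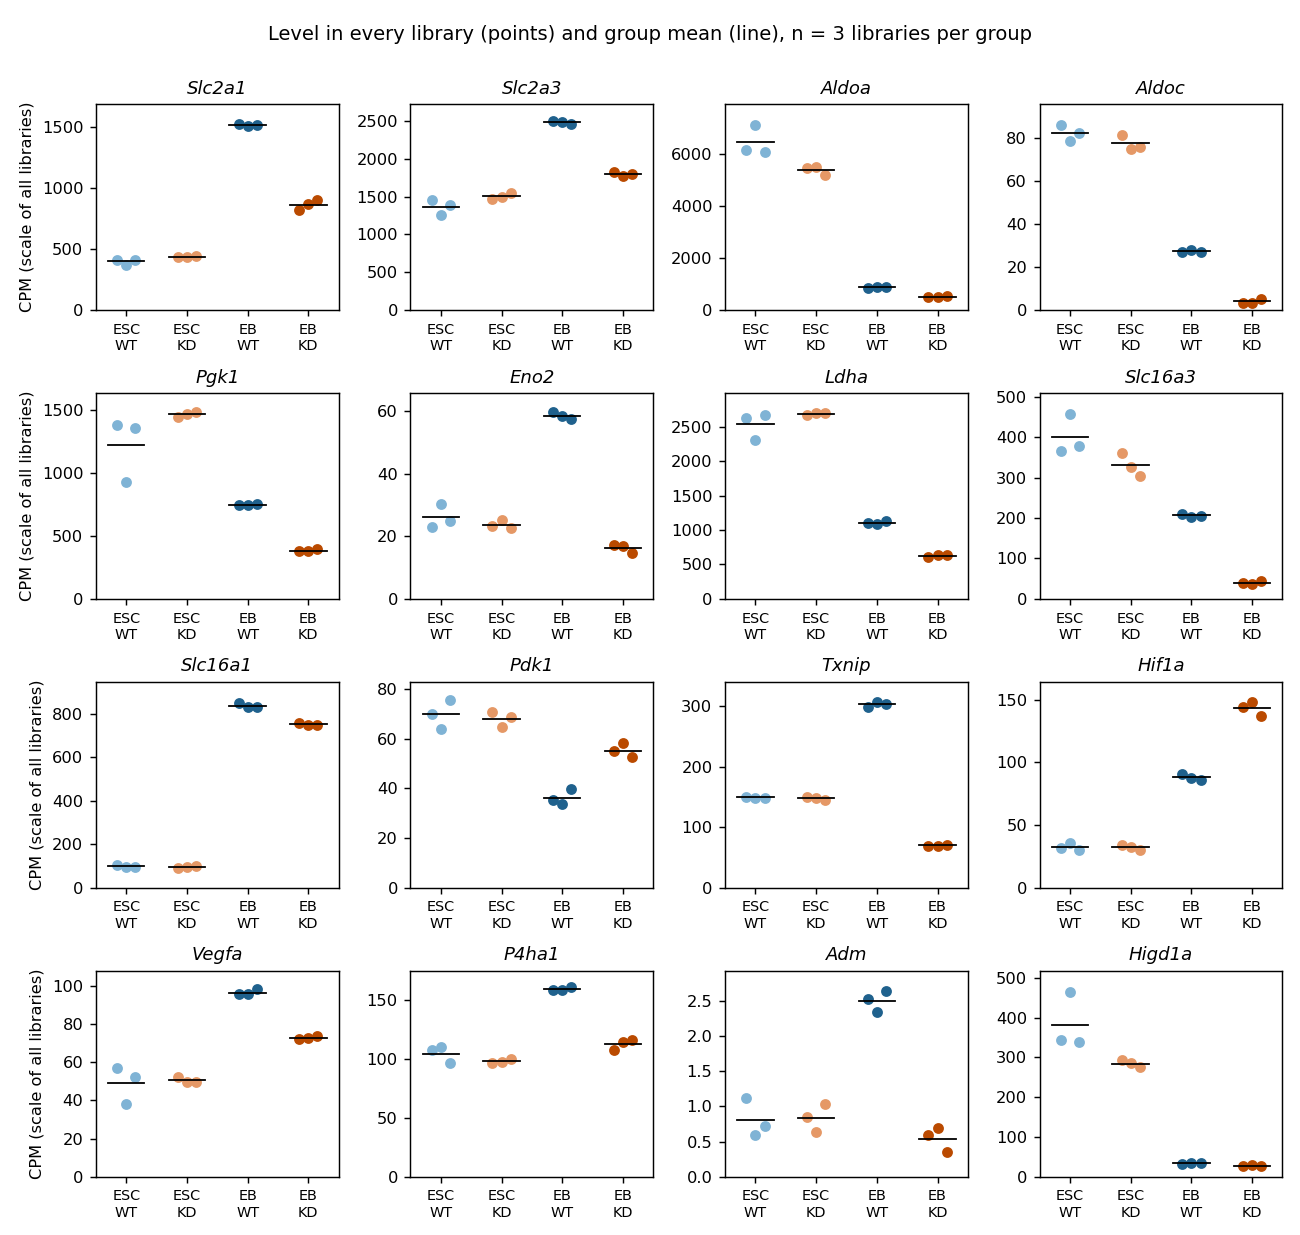
CPM on the scale of all 12 libraries (y axis, from 0) in ESC WT, ESC KD, EB WT and EB KD (x axis) for 16 members; each point is 1 library and each line a group mean. For Txnip the 6 ESC libraries lie between 145 and 151 CPM, EB WT between 299 and 308 and EB KD between 69.5 and 70.7.

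Isozyme genes of 1 step did not fall in proportion, so the makeup of several steps differed between WT and KD EBs. Shares are of CPM per kb of exon within a family of members. Eno1b, a near-copy of Eno1 described below, is not a member and is left out of them. Aldoc held 3.25% ± 0.0703 (SD, n = 3) of the aldolase level in EB WT and 0.826% ± 0.197 in EB KD, and 1.36% ± 0.163 and 1.52% ± 0.0721 in ESC WT and ESC KD. Eno2 held 4.68% ± 0.195 of Eno1 plus Eno2 in EB WT and 1.79% ± 0.137 in EB KD, against 0.526% ± 0.0345 and 0.532% ± 0.0292 in ESCs. Both shares were higher in EB WT than in any other group and lower in every EB KD library than in any EB WT library.

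The shares of the lactate genes differed between both stages and genotypes. Slc16a3 held 77.0% ± 2.83 of the 2 lactate transporter genes in ESC WT and 73.8% ± 2.68 in ESC KD, but 17.0% ± 0.0619 in EB WT and 4.20% ± 0.317 in EB KD. Ldhb held 37.0% ± 1.98 of lactate dehydrogenase in ESC WT, 31.9% ± 0.265 in ESC KD, 15.0% ± 0.138 in EB WT and 23.0% ± 0.776 in EB KD. The Ldhb share was higher in every EB KD library than in any EB WT library; Ldha had a log2 fold change of −0.87 there and Ldhb one of −0.10.

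Hk2 and Slc2a1 also held lower shares in KD than in WT EBs. Hk2 held 79.0% ± 1.10 of Hk1 plus Hk2 in EB WT and 71.5% ± 0.609 in EB KD, beside 67.0% ± 1.03 and 67.6% ± 0.833 in ESC WT and ESC KD. Slc2a1 held 55.8% ± 0.240 of the 2 GLUT genes in EB WT and 49.7% ± 1.41 in EB KD, beside 37.5% ± 0.596 and 37.4% ± 0.495. The phosphofructokinase genes fell together: Pfkm held 33.5% ± 0.788 of them in EB WT and 34.6% ± 0.735 in EB KD, with overlapping libraries. With 3 libraries against 3, an exact permutation test of a single share cannot give a two-sided p below 0.10, and none was run.

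**Figure D3:**
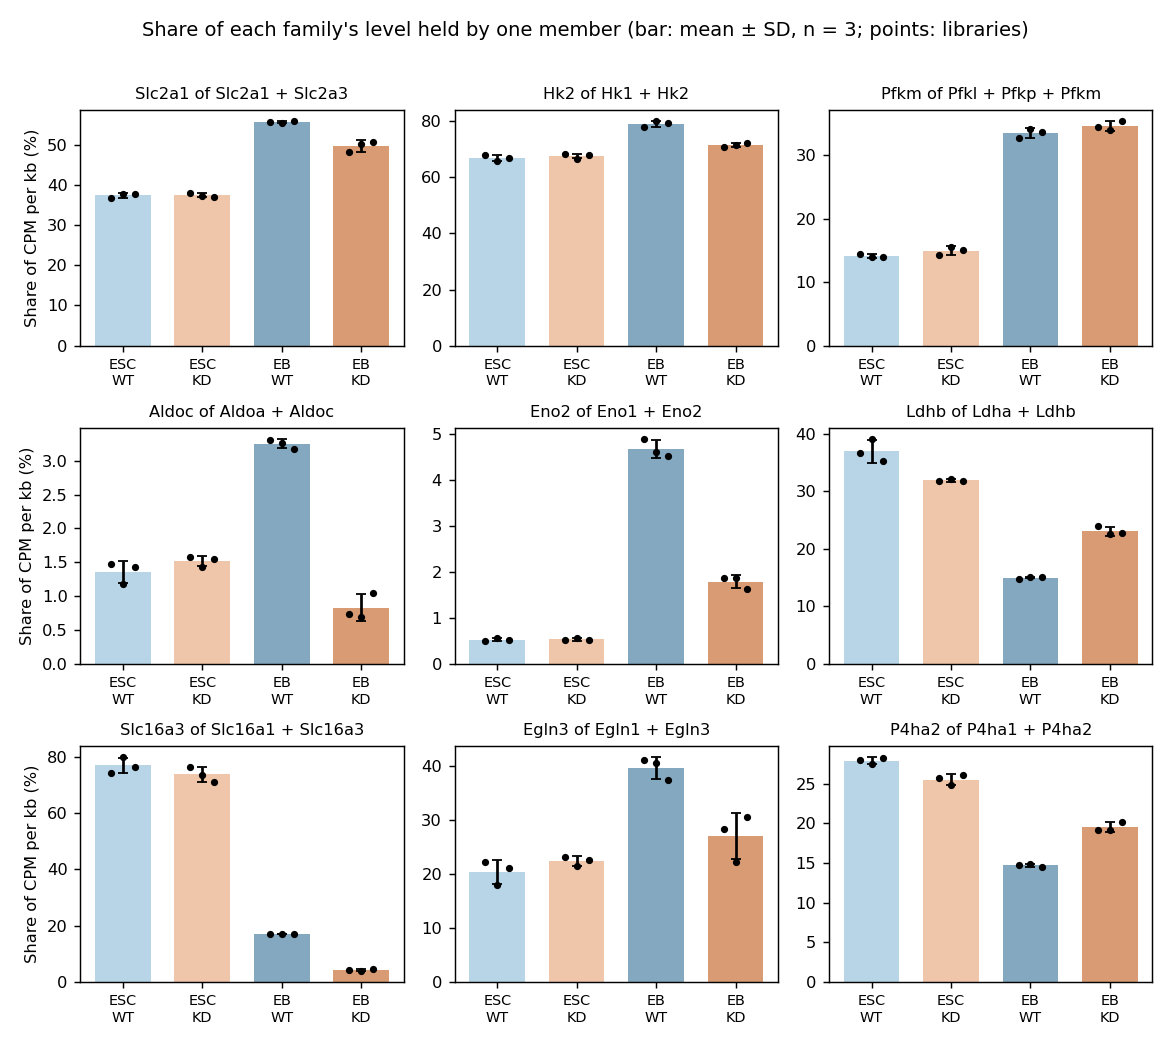
Share of CPM per kb (y axis, in percent, from 0) held by 1 gene of a family, in each of the 4 groups (x axis); bars are means, error bars are SD over 3 libraries and points are libraries. Slc16a3 falls from 77.0% in ESC WT to 17.0% in EB WT and 4.20% in EB KD, while Pfkm is near 34% in both EB groups.

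Against ESCs, WT EBs expressed less of almost every glycolytic enzyme and more of the glucose transporters. In WT, 11 of the 35 members were higher in EBs and 22 lower; over all 18975 genes tested, 42.5% were called higher and 37.3% lower. Among the enzymes 13 were lower, Eno2 was higher and Pgam1 was not called, with a median log2 fold change of −1.61, EB over ESC. HIF targets were split: 5 higher (Vegfa, Egln3, P4ha1, Adm and Mxi1), 5 lower (Bnip3, Egln1, Ankrd37, P4ha2 and Higd1a) and Ndrg1 not called, with a median of −0.17. The median over all genes was 0.17. Without ESC WT replicate 2 all 35 were called, 11 higher and 24 lower, with Pgam1 (−0.41) and Ndrg1 (−0.26) added; over all genes 40.5% were then called higher and 36.7% lower.

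The largest rises in WT EBs were those of Slc16a1, Slc2a1 and Adm. Slc16a1 measured 105, 94.9 and 96.4 CPM (12-library scale) in ESC WT and 852, 830 and 831 CPM in EB WT, a log2 fold change of 3.08 (SE 0.06, adjusted p = 5.11e-16). Slc2a1 rose from 410, 369 and 411 CPM to 1524, 1504 and 1515 CPM, a log2 fold change of 1.93 (SE 0.06, adjusted p = 4.90e-14). Adm rose from 1.12, 0.598 and 0.718 CPM to 2.53, 2.35 and 2.63 CPM, a log2 fold change of 1.61 (SE 0.39, adjusted p = 0.00145). No ESC WT library reached an EB WT library in any of the 3.

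The lowest values belonged to Ankrd37, Higd1a and Ldhb. Ankrd37, an ankyrin repeat protein that HIF induces, measured 13.2, 20.5 and 12.0 CPM (12-library scale) in ESC WT and 0.781, 0.755 and 1.01 CPM in EB WT, a log2 fold change of −4.15 (SE 0.25, adjusted p = 1.94e-10). Higd1a measured 343, 464 and 337 CPM in ESC WT and 32.9, 34.9 and 34.1 CPM in EB WT, a log2 fold change of −3.49 (SE 0.10, adjusted p = 1.28e-13). Replicate 2 was the highest ESC WT library for both, and the groups stayed apart without it. Ldhb fell from 718, 704 and 687 CPM to 90.8, 91.4 and 94.6 CPM, a log2 fold change of −2.93 (SE 0.05, adjusted p = 1.44e-16). Of the exonic bases of Ankrd37 and Higd1a, 26.4% and 22.5% are shared with other genes, whose counts cannot be told apart by strand here.

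From ESC to EB, KD cells had fewer members higher and more lower than WT cells. Of the 35 members 6 were higher in EBs and 26 lower, where 42.5% of all genes were higher and 37.3% lower. Among the enzymes 14 were lower and Gapdh was not called, with a median of −2.05, and among the HIF targets 2 were higher (Vegfa and P4ha1), 7 lower and 2 not called (Adm and Mxi1), with a median of −0.36. The P4ha1 call (log2 fold change 0.20, adjusted p = 0.00565) was lost without any 1 of the 3 ESC KD libraries (adjusted p = 0.0674 to 0.112) and held without any 1 EB KD library. The lowest 3 were Ankrd37 (−4.38), Aldoc (−4.29) and Aldoa (−3.41). Aldoc measured 81.5, 75.0 and 76.1 CPM (12-library scale) in ESC KD and 3.42, 3.30 and 5.15 CPM in EB KD, where WT cells went from 86.0, 78.7 and 82.3 CPM to 27.0, 27.9 and 27.2 CPM. Aldoa measured 5470, 5527 and 5214 CPM in ESC KD and 491, 512 and 519 CPM in EB KD. Aldoa had the highest level per kb of all members in both ESC groups and was outside the top 6 in both EB groups.

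The 3 highest in KD were Slc16a1 (2.95), Hif1a (2.15) and Slc2a1 (0.98). Hif1a measured 33.8, 32.4 and 30.3 CPM (12-library scale) in ESC KD and 144, 148 and 137 CPM in EB KD, beside 31.4, 36.1 and 29.7 CPM in ESC WT and 90.4, 87.4 and 86.2 CPM in EB WT. It rose in both and further in KD.

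**Figure D4:**
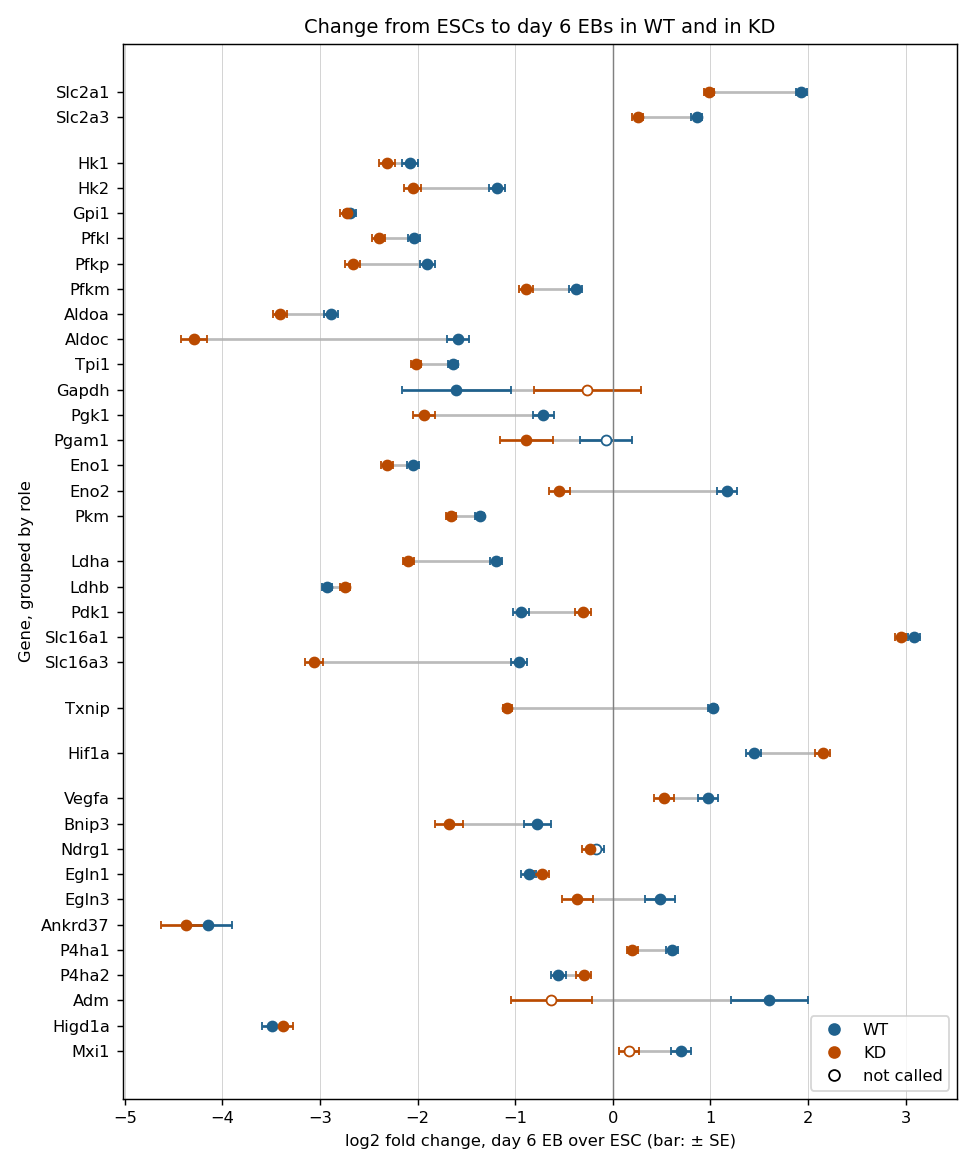
Log2 fold change, day 6 EB over ESC, with its standard error (x axis) for each of the 35 genes (y axis) in WT and in KD cells, joined by a grey line; open points were not called. Txnip and Eno2 lie above 0 in WT (1.02 and 1.17) and below 0 in KD (−1.08 and −0.55).

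Scaling matters for statements across stages. Ribosomal protein genes took 179740 to 263570 CPM (12-library scale) in ESC WT and 51110 to 53652 CPM in EB WT. A large share of ESC counts thus came from few genes. TMM factors of 0.745 to 0.866 in ESC WT put these CPM above a plain share of the counts. Factors of 1.18 to 1.19 in EB WT put them below it. With library size only in place of TMM, the median over all genes moved from 0.17 to 0.70 in WT, from 0.15 to 0.52 in KD and from 0.03 to −0.13 for the difference between stages, and from 0.01 to 0.12 for KD against WT in ESCs. In WT the calls over all genes were then 9876 higher of 15148, against 8061 of 15133 with TMM, and for the difference 1457 higher of 4133, against 2430 of 4370. Under that scaling 12 members were higher and 17 lower in WT, where 52% and 27.8% of all genes were, and 7 higher and 20 lower in KD, where 48.8% and 30% were. The log2 fold change then changed sign for Pfkm and Ndrg1 in WT and for Pdk1, Ndrg1, Egln3 and P4ha2 in KD, and the HIF target medians became 0.36 in WT and 0.01 in KD, both below the median over all genes.

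The KD effect itself was compared between stages as EB minus ESC, from the same 12 libraries as the contrasts above, so these results share samples and do not support one another. It was called more negative in EBs for 22 of the 35 members and more positive for 3, where 10.2% and 12.8% of all genes were called. Glycolytic genes had 15 more negative, 2 more positive (Pdk1 and Ldhb) and 5 not called. HIF targets had 6 more negative, none more positive and 5 not called. The medians were −0.52 and −0.41, beside 0.03 over all genes. Without ESC WT replicate 2 the counts were 24 and 3, where 13.7% and 14.2% of all genes were called.

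Txnip was measured at nearly the same level in both ESC groups. Its ESC WT libraries measured 151, 149 and 149 CPM (12-library scale) and its ESC KD libraries 151, 149 and 145 CPM, while EB WT measured 299, 308 and 305 CPM and EB KD 70.0, 69.5 and 70.7 CPM. It thus rose with differentiation in WT (1.02) and fell in KD (−1.08), and the difference of the KD effect was −2.11 (SE 0.06, adjusted p = 3.68e-11). Aldoc had a difference of −2.70 (SE 0.17, adjusted p = 4.43e-08) and Adm one of −2.23 (SE 0.57, adjusted p = 0.0101). Hif1a (0.71, SE 0.11, adjusted p = 1.90e-04) and Pdk1 (0.64, SE 0.12, adjusted p = 0.00107) differed in the other direction. The value of Ldhb (0.19, SE 0.07, adjusted p = 0.0494) passed narrowly and was lost when any 1 of 11 libraries was left out (adjusted p = 0.0743 to 0.219), with no filter (0.155) and with library size only, where it was 0.02 (adjusted p = 0.898).

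Gapdh, which makes the substrate of Pgk1 and is a common reference gene, could not be read like the others. Its libraries measured 375, 307 and 339 CPM (12-library scale) in ESC WT, 147, 233 and 226 in ESC KD, 50.9, 63.1 and 222 in EB WT, and 178, 103 and 224 in EB KD. Within EB WT, replicate 3 lay far above the other libraries of the group, and in EB KD replicate 2 lay below the others. The annotation held 94 genes with a stretch of at least 150 bases and 95% identity to a Gapdh transcript, of which 90 were pseudogenes and 89 of these had counts. These pseudogenes held 48.97% of the counts of Gapdh and its pseudogenes together. How multiply aligned reads were counted is not given in the sources used here, and its part in these values was not tested. For KD against WT in EBs the log2 fold change was 0.53 (SE 0.73, adjusted p = 0.599), and the ESC to EB fall in WT (−1.61, adjusted p = 0.0264) was lost without ESC WT replicate 1, without EB WT replicate 1 or 2, and with library size only (adjusted p = 0.0585, 0.0717, 0.0845 and 0.0996).

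**Figure D5:**
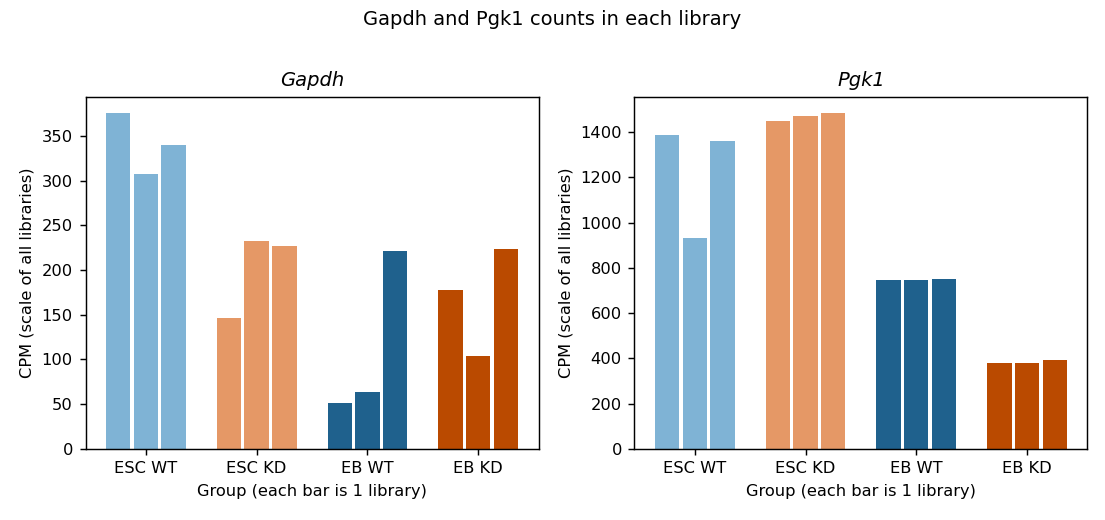
CPM on the scale of all 12 libraries (y axis, from 0) of Gapdh on the left and Pgk1 on the right, with 1 bar per library in each of the 4 groups (x axis). Gapdh differs from 50.9 to 222 CPM within EB WT, while Pgk1 lies at 745 to 752 CPM in EB WT and 379 to 395 CPM in EB KD.

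Eno1 has a coding near-copy, Eno1b, with 99.5% identity over 1736 bases, and reads could be split between them. Eno1b fell in KD EBs too (−0.41, SE 0.03, adjusted p = 3.64e-13), and Eno1 plus Eno1b measured 1860, 1911 and 1944 CPM (12-library scale) in EB WT and 1441, 1445 and 1451 CPM in EB KD. Pseudogenes held 5.23% of the counts for Eno1. For Pkm they held 1.11%, and for Pgk1, Ldha, Pgam1, Tpi1 and Aldoa at most 0.932%.

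The branches around glycolysis moved less evenly in KD EBs, where 27.7% of all genes were called lower and 28% higher. Of 7 other glycolytic isozymes tested 4 fell (57.1%), among them the muscle enolase Eno3 (−1.18), and none rose. Of the 5 genes that set fructose 2,6-bisphosphate, the activator of phosphofructokinase, 40% fell and 20% rose. Pfkfb3 (−0.89) and Pfkfb1 (−0.25) fell and Pfkfb2 (0.28) rose. The pentose phosphate pathway had 4 of 8 lower (50%), led by transketolase (Tkt, −0.72), and 2 higher (25%, near the share of all genes). Serine synthesis from 3-phosphoglycerate had 3 of 5 lower (60%), led by Phgdh (−0.72), and 1 higher (20%).

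Genes of mitochondrial fuel use were read from the same fit. In the TCA cycle 13 of 16 genes fell and none rose (81.25% lower, beside 27.7% of all genes). The median was −0.15 and the lowest value, −0.41, was that of Idh3a. Among 19 nuclear-encoded respiratory chain genes 9 fell (47.4%), led by Ndufs1 (−0.56), and 2 rose (10.5%), beside 27.7% and 28% of all genes. Of 12 genes of pyruvate entry and its dehydrogenase 4 fell, led by Pdk2 (−0.90), and 3 rose, led by the pyruvate carrier gene Mpc1 (1.29, SE 0.39), which is near the 27.7% and 28% of all genes. Thus Pdk1 and Pdk2, kinases of the same complex, moved in opposite directions.

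Other genes of the HIF pathway were mixed in KD EBs. Of 23 further HIF targets tested, 10 fell and 6 rose (43.5% and 26.1%, beside 27.7% and 28% of all genes). Their median was −0.05, beside −0.53 for the 11 members. The difference between the lists was not tested. The carbonic anhydrases Car12 (−1.90) and Car9 (−1.71) fell most, and Stc2 (1.62) and the glycogen branching enzyme Gbe1 (0.71) rose most. Of 10 regulators of the pathway 3 rose (30%) and 2 fell (20%), near the shares of all genes. Epas1 (0.77), which encodes the HIF-2 alpha subunit, led the rises, beside the hydroxylase gene Egln2 (0.59). Hif3a (−0.66) and Siah2 (−0.54) fell. Vhl and Arnt were not called (−0.04 and −0.03).

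Regulators that act on glycolytic genes outside HIF also moved. In the MondoA and glucose response list, Mlxipl, which encodes ChREBP, fell by 2.32 and Arrdc4, a sister gene of Txnip, fell by 1.84 on the log2 scale, while Arrdc3 rose by 0.90; Mlxip, which encodes MondoA itself, was not called (−0.02). Of 9 genes of the MYC and MAX network 8 rose (88.9%, beside 28% of all genes) and none fell, with a median of 0.51. Myc rose by 1.06 (SE 0.08, adjusted p = 1.13e-12) and Mxd3 by 1.00. Myc was also the 1 gene of these lists called in ESCs, at 0.84 (SE 0.16, adjusted p = 0.0435). That fit included ESC WT replicate 2, and the Myc result without this library is not given here.

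Pgk1 and Gapdh also serve as reference genes in quantitative PCR. Of 16 such genes 4 fell and 6 rose in KD EBs (25% and 37.5%), beside 27.7% and 28% of all genes, with Pgk1 (−1.02) and Rpl13a (−0.90) lowest and Hprt (2.25, SE 0.71) and Polr2a (0.99) highest. Tbp (0.04) was not called.

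Markers of other cell types and of RNA makeup moved between the same libraries, in which 27.7% of all genes were called lower and 28% higher. The marker sums of this paragraph are on the 12-library scale. Summed over 8 fibroblast and mesenchyme markers, EB WT libraries held 545 to 550 CPM and EB KD libraries 1666 to 1693 CPM. Of these markers, 7 of 8 were called higher. The 8 cardiac muscle markers summed to 87.5 to 96.7 CPM in EB WT and 33.8 to 39.5 CPM in EB KD, with 6 of 8 lower. Skeletal muscle markers summed to 34.6 to 38.5 CPM and 14.0 to 14.5 CPM, with Myf5 at 0 in both groups and Ckm at 0 in EB KD. Naive pluripotency markers summed to 288 to 291 CPM and 465 to 476 CPM, with 9 of 10 higher. The 5 core pluripotency markers summed to 719 to 742 CPM in EB WT and 644 to 658 CPM in EB KD, with 3 higher and 2 lower. Definitive endoderm markers summed to 341 to 359 CPM and 320 to 331 CPM, with 2 higher and 2 lower. Trophoblast markers summed to 69.7 to 72.7 CPM and 85.8 to 90.5 CPM, with 1 of 4 tested higher and 2 lower. The 8 yolk sac endoderm markers summed to 243 to 260 CPM and 541 to 563 CPM, with 4 higher and 2 lower, and the primitive streak markers to 22.8 to 24.6 CPM and 46.5 to 49.5 CPM, with 3 of 6 tested higher, 1 lower and Msgn1 at 0 in EB WT. Endothelial markers summed to 116 to 122 CPM and 224 to 235 CPM, with Emcn at 0 in EB WT.

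The sums given next are on the 12-library scale too. Neural markers are of the cell type in which Aldoc and Eno2 are best known. Their sums were 65.4 to 69.3 CPM in EB WT and 85.0 to 88.7 CPM in EB KD, with 3 of 7 called higher and 1 lower. Red blood cell markers, from cells that rely on glycolysis alone, summed to 2.21 CPM or less in every EB library. Ribosomal protein genes summed to 51110 to 53652 CPM in EB WT and 38921 to 41344 CPM in EB KD. Of 84 tested, 71 were called lower (84.5%) and 3 higher, beside 27.7% and 28% of all genes. Their median log2 fold change was −0.44. Mitochondrially encoded mRNAs summed to 12029 to 12458 CPM and 13038 to 13996 CPM, with 7 of 12 tested higher and 1 lower. The part of these shifts in the changes of the members was not tested.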

How the data were processed

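RNA was sequenced from 12 libraries in 4 groups of 3. The deposited values are raw counts per gene. Per the file headers, they were made with featureCounts 2.0.3 on the Ensembl release 90 annotation of GRCm38, for read pairs with both ends mapped and chimeric pairs left out, with no strand and no multi-mapping option named. The submitters' processing notes name HISAT2 2.1.0, mm10 and DESeq2 1.18.1. Low counts were mostly even (61.7% to 68.7% of counts from 1 to 10), so each mate was counted. Totals ran from 25.4 to 37.8 M per library. The labels name biological replicates. Each p-value weighs a difference against the spread between these libraries. In the fit of 12 libraries that spread is shared by all 4 groups, ESC WT replicate 2 included.

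KD was compared with WT within a stage, and EBs with ESCs and the KD effects between stages in 1 fit of all 12 libraries, with edgeR 4.0.16 (R 4.3.3): TMM scaling, filterByExpr (minimum count 10, total 15), robust quasi-likelihood F-test, Benjamini-Hochberg adjustment over all genes, threshold 0.05. Standard errors are the absolute log2 fold change over the square root of F. The code was tested on simulated data. Near-identical genes were found with blastn 2.17.0 in GENCODE M21. Gene coordinates and exon overlaps came from the exons given with the counts. Promoters are RefSeq, GRCm38.p6. Same-numbered libraries did not vary together (correlations from −0.026 to 0.037), so no block was used. Alternatives were DESeq2 1.42.0, other scaling and filters, halved counts, a fit of all 4 groups, the block and each library left out. Members and lists were chosen with earlier results of these data known. Library values in full are given for, per role, the called members with the lowest and highest EB change and the one of the highest level per length, and for the extremes of the stage contrasts; of each other list, up to 2 called genes per direction are named, and further genes of those lists were added for context after their values were seen. Results for 2 genes of those lists are not reported here.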

Additional observations from a re-analysis of the deposited data

Results flagged for a closer look

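The KD effect differed between EBs and ESCs, by the test of the difference itself in the fit of all 12 libraries, for 25 members. All values here are log2 differences, KD effect in EBs minus KD effect in ESCs. Among the transporters and enzymes it was −0.95 for Slc2a1, −0.60 for Slc2a3, −0.86 for Hk2, −0.37 for Pfkl, −0.76 for Pfkp, −0.51 for Pfkm, −0.52 for Aldoa, −2.70 for Aldoc, −0.38 for Tpi1, −1.22 for Pgk1, −0.27 for Eno1, −1.71 for Eno2 and −0.29 for Pkm. For the genes of pyruvate and lactate it was −0.90 for Ldha, 0.19 for Ldhb, 0.64 for Pdk1 and −2.10 for Slc16a3. Txnip stood at −2.11 and Hif1a at 0.71. Among the HIF targets it was −0.45 for Vegfa, −0.91 for Bnip3, −0.85 for Egln3, −0.41 for P4ha1, −2.23 for Adm and −0.53 for Mxi1. The call was lost on leaving out any 1 of 11 libraries for Ldhb (adjusted p = 0.0743 to 0.219), of 9 for Vegfa (0.0535 to 0.0821) and of 5 for Eno1 (0.0515 to 0.0732). It was also lost for Ldhb with library size only (0.898) and no filter (0.155), and for Eno1 in DESeq2 (0.0649) and with RLE size factors (0.107).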

How the results depend on the processing

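Between EBs of KD and WT the count of called members stayed at 27 to 30 under every other setting and at 28 to 30 with each library left out. In ESCs, where edgeR called 0, DESeq2 called 4 members, the fit with no filter 6, the fit of all 4 groups 7, and fits leaving out 1 library 0 to 7, with 7 only without ESC WT replicate 2. Over all genes the ESC count was 97, against 917 with DESeq2, 36 with library size only, 1769 with no filter, 266 with the replicate block, 1999 in the fit of all 4 groups, 1557 without ESC WT replicate 2, 296 without ESC WT replicate 3 and 8 to 23 without any other ESC library. For KD against WT in EBs the fit of all 4 groups gave medians of −0.52 (glycolytic genes) and −0.48 (HIF targets) and 6650 called genes against 9667 over all genes; leaving out 1 library gave −0.57 to −0.46 for the HIF targets. With library size only, the medians of glycolytic genes and HIF targets were 0.075 and 0.072 in ESCs, −0.75 and 0.36 across stages in WT, −1.66 and 0.0066 across stages in KD, and −0.68 and −0.57 for the difference between stages. With that scaling the direction turned for Pfkm (adjusted p = 0.101) and Ndrg1 (0.00673) in WT and for Pdk1 (0.569), Ndrg1 (0.248), Egln3 (0.975) and P4ha2 (0.445) in KD. With 1 library left out, the HIF target median in ESCs ran from −0.11 to −0.011, the glycolytic median from −1.38 to −1.22 in WT and from −2.10 to −2.02 in KD across stages, and the HIF target median in KD from −0.48 to −0.28. The replicate numbers shared no more than a number. With the replicate block, 30 members were called in EBs, 0 in ESCs, 33 and 31 across stages in WT and KD, and 23 for the difference between stages; Egln3 in KD (adjusted p = 0.0518), and Eno1 (0.0508) and Ldhb (0.0895) for the difference, lost their call. Across stages in KD, the calls of P4ha1 (0.0674 to 0.112) and Egln3 (0.0759 to 0.213) were each lost without any 1 of 3 libraries and that of Ndrg1 (0.0618 to 0.0738) without either of 2. The cause of these changes was not tested. Depth limits Adm and Ankrd37, the members of the lowest levels, and 3 libraries per group limit every standard error.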
